A study of Sus scrofa with 16 samples.

Results

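Methylation peaks in the hearts of 8 pigs raised at high elevation were compared with those of 8 pigs raised at low elevation, over both breeds. All 16 animals of the series entered this comparison. The highland side comprised 4 Tibetan (TH) and 4 Yorkshire (YH) pigs kept at 3000 m, and the lowland side comprised 4 Tibetan (TL) and 4 Yorkshire (YL) pigs kept at 100 m. All were castrated boars aged 6 months, and each had been conceived, born and reared where it was sampled. TH and YL were in the home area of their breed. YH and TL were moved animals, in that their ancestors had been brought to the other elevation. Feeding was uniform among pigs of the same elevation, so feed and site cannot be told apart from elevation. The labels give the tissue as heart, and DNA peaks hold no marker that could check it.

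DNA methylation is the addition of a methyl group to cytosine, in mammals mostly where a cytosine is followed by a guanine. In MeDIP-seq, sheared DNA is precipitated with an antibody against methylated cytosine and sequenced, and a peak is a stretch with more reads than its surroundings. Methylation of a promoter often goes with low transcription of the gene. Low oxygen is sensed in mammalian cells mainly through hypoxia-inducible factor 1 (HIF-1), which switches on genes of blood vessel growth, iron transport and glycolysis. Insulin-like growth factor signaling acts through the FoxO factors, among others. In bulk heart tissue, a change in the share of a cell type and a change of methylation within cells cannot be told apart.

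Each of the 4 deposited lists held overlapping peaks without animal names, with at most 4 over any base. A list was read here as the joined peaks of the 4 animals of its group. The sources used here do not state this, and every number of animals and every p below rests on it. The genome was divided into windows of 500 bp on chromosomes 1 to 18, and the peaks over base 250 of a window were counted in each list (0 to 4) and taken as animals. TH and YH were then summed (0 to 8) and set against the sum of TL and YL (0 to 8) with a two-sided Fisher exact test. The highland lists held 522375 peaks on these chromosomes (258861 in TH and 263514 in YH), and the lowland lists held 546505 (240851 in TL and 305654 in YL). The number of uniquely mapped reads per animal, taken from the study's sequencing summary, was 15760312 ± 1589987 (SD, n = 8) at high elevation, with a median of 15558173. It was 15540102 ± 2083899 (SD, n = 8) at low elevation, with a median of 16354858. The difference of 220210 reads was smaller than the spread between animals (two-sided exact permutation test over 12870 assignments, p = 0.81), and its sign turned when TL replicate 1, 3 or 4 or YH replicate 2 was left out (-171383 without TL replicate 3). Uniquely mapped reads made up 55.1% ± 1.7 (SD, n = 8) of the clean reads at high and 55.5% ± 1.38 (SD, n = 8) at low elevation, and this difference did not pass the same exact permutation test either (p = 0.568). Elevation went with the reads in opposite directions in the breeds: TH exceeded TL by 1362572 reads per animal, whereas YH lay below YL (YH minus YL, -922152 reads). This difference of 2284724 reads between the breeds did not pass an exact permutation test within each breed (p = 0.143).

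A peak was present in at least 1 animal in 620135 of 4898750 windows. Most of these windows could not show a difference between 8 and 8 animals. Peaks in 1 animal of 16 accounted for 204966 windows (33.1%), peaks in fewer than 5 animals for 415585 windows (67%), and peaks in more than 11 animals for 48855 windows (7.88%), of which 7590 had a peak in all 16 animals. The exact test can fall below p = 0.05 only where 5 to 11 of the 16 animals have a peak. This left 155695 tested windows (25.1% of the windows with a peak). The TH list stood apart in that 5.74% of its windows with a peak had one in all 4 animals, compared with 9.7% (TL), 12.3% (YL) and 13.2% (YH). The part of this in the elevation counts was not tested. In the tested windows, the mean number of animals with a peak was 3.64 of 8 at high elevation and 3.72 of 8 at low elevation.

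An elevation difference at an unadjusted exact p under 0.05 was found in 2526 of the 155695 tested windows (1.62%). More highland than lowland animals had a peak in 975 of these windows (0.626% of the tested windows), and more lowland animals had a peak in 1551 windows (0.996%). The highland share was therefore 38.6% (95% Wilson interval 36.7% to 40.5%, which covers counting error only). With the same number of peaks taken from each list, by tags, it was 45.4%. No window passed Benjamini-Hochberg adjustment over the tested windows, and the smallest adjusted p of the Fisher exact test was 1. The windows named below are thus descriptions of where the counts differed most, each at an unadjusted p.

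**Figure D1:**
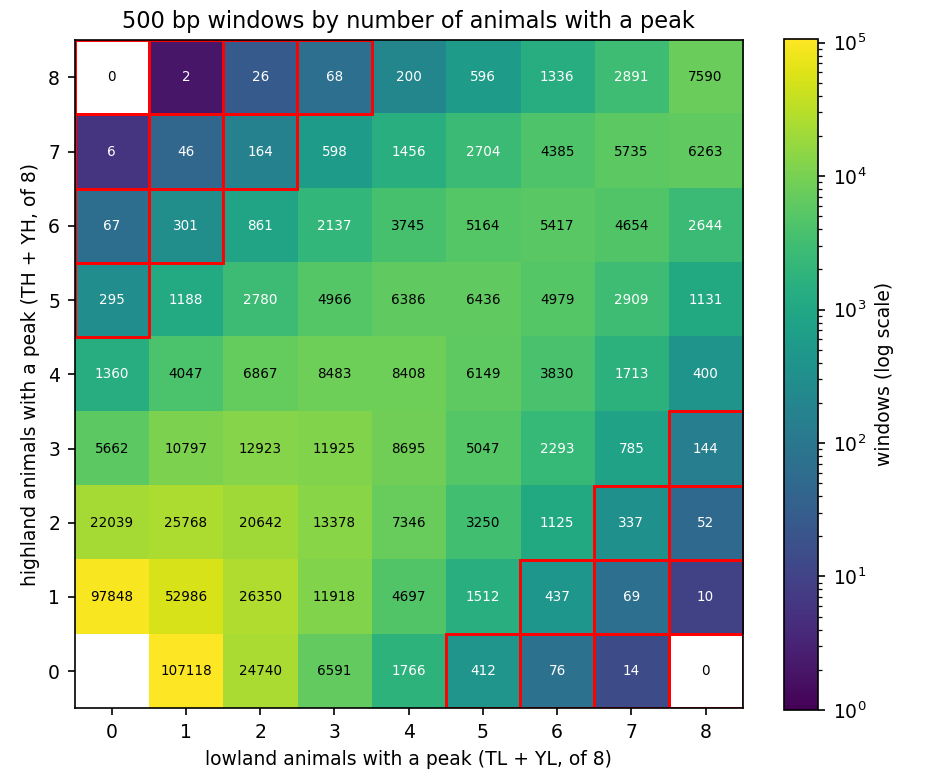
Number of 500 bp windows (colour, log scale, and printed count) by the number of lowland animals (horizontal axis, 0 to 8) and highland animals (vertical axis, 0 to 8) with a peak; windows without any peak are left blank. Red frames mark the combinations with an unadjusted exact p under 0.05, and the corners at which all 8 animals of one elevation and 0 of the other have a peak hold 0 windows.

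The plot of windows by number of animals shows that no window had a peak in all 8 animals of one elevation and in 0 of the other. The nearest splits gave the smallest p-value reached, 0.0014 (Fisher exact test), in 32 windows. Among these, 6 windows had a peak in 7 highland and 0 lowland animals and 2 windows in 8 highland and 1 lowland animals. The opposite splits were found in 14 windows (0 highland and 7 lowland animals) and 10 windows (1 and 8). The most frequent called splits were 1 highland against 6 lowland animals, with 437 windows, and 0 against 5, with 412 windows. In the other direction, 301 windows had a peak in 6 highland and 1 lowland animals and 295 windows in 5 and 0. Peaks were absent from all animals of the other elevation in 368 highland windows (37.7% of 975) and in 502 lowland windows (32.4% of 1551). A peak in all 8 animals of the higher side was less frequent, with 96 highland windows (9.85%) and 206 lowland windows (13.3%).

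The share of windows called depended on how many animals had a peak, because the exact test takes few values. With 5 animals the largest p below 0.05 is 0.0256 and 1.98% of windows were called. With 6 animals it is 0.00699 and 0.493% were called, and with 7 animals it is 0.0406 and 3.16% were called. The pairs for 8, 9, 10 and 11 animals were 0.0101 and 0.56%, 0.0406 and 2.94%, 0.00699 and 0.504%, and 0.0256 and 1.57%. In each of these 7 classes the share called was below the largest p that the class allows. More windows were called toward low than toward high elevation in each class.

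**Figure D2:**
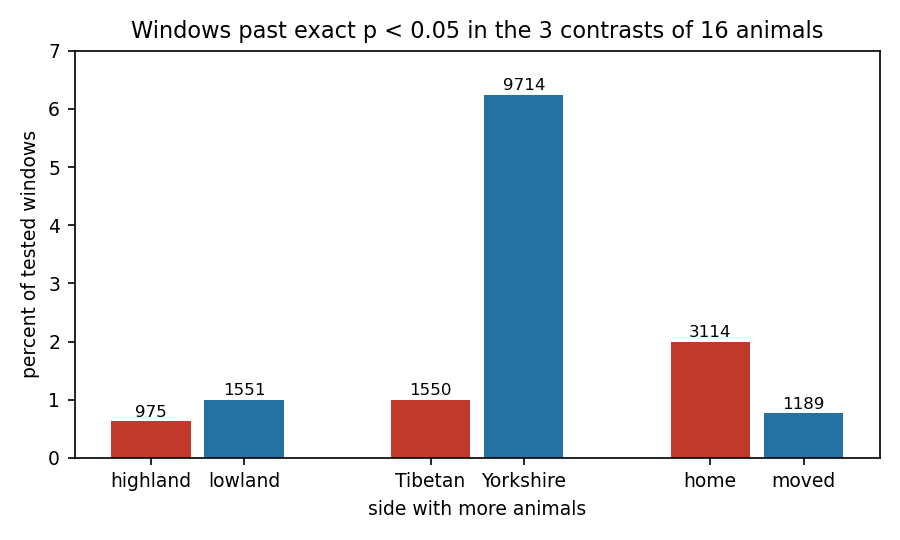
Percent of the 155695 tested windows (vertical axis) past an unadjusted exact p under 0.05, for the 3 contrasts of the same 16 animals, with the number of windows above each bar. Elevation gave 975 and 1551 windows, fewer in all than breed (1550 and 9714) and than home against moved animals (3114 and 1189).

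The crossed design allows 2 further contrasts of 8 against 8 animals on the same windows, to which the elevation count can be compared. Tibetan and Yorkshire pigs (TH and TL against YH and YL) differed in 11264 windows (7.23%), which was 4.46 times the number for elevation. The smallest p for breed was 0.000155 (Fisher exact test), the value for 8 animals against 0, in 95 windows, and the smallest adjusted p was 0.255. The Tibetan share of the breed windows was 13.8%, and it was 57.9% among peaks with a fold enrichment of at least 10, so its direction depended on this setting. Animals in the home area of their breed and moved animals (TH and YL against YH and TL) differed in 4303 windows (2.76%), 1.7 times the number for elevation. These windows are those in which elevation went in opposite directions in the breeds. The home lists held 564515 peaks and the moved lists 504365, and the Tibetan lists held 499712 and the Yorkshire lists 569168. The lists of both contrasts thus differed more in size than those of elevation. The part of list size in these counts was not tested beyond the equal lists, with which the ratios were 4.52 and 1.83.

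The direction in each breed was examined next. All 2526 windows had the same direction in TH minus TL and in YH minus YL. This is fixed by arithmetic and is no evidence of a shared response: a p under 0.05 requires a difference of at least 5 animals, and a single breed can contribute at most 4. A difference of at least 2 animals in each breed was found in 2122 of the 2526 windows, 848 toward high and 1274 toward low elevation. This too is largely fixed by the call and is given as a description: it is forced in the 368 windows with a total difference of 6 or more animals. In the 2158 windows with a difference of 5, it was split 3 and 2 between the breeds in 1754 and 4 and 1 in 404. The difference was larger in Tibetan pigs in 1117 windows, larger in Yorkshire pigs in 1225 and equal in 184. Among highland windows the corresponding numbers were 447, 449 and 79, and among lowland windows 670, 776 and 105.

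The breeds were also set side by side without any filter on p. Over all 155695 tested windows, Pearson's correlation between TH minus TL and YH minus YL was -0.07, a description across windows that share peaks and libraries. The mean differences had opposite signs, 0.191 animals per window for TH minus TL (means 1.7 and 1.5 of 4) and -0.27 for YH minus YL (1.94 and 2.21 of 4). A difference of at least 2 animals in each breed was found in 12347 windows. The direction was the same in 4768 of these (38.6%), with 2044 toward high and 2724 toward low elevation. It was opposite in 7579, of which 5560 had more peaks in TH and YL and 2019 had more in TL and YH. With equal numbers of peaks per list the correlation was -0.08 and the share with the same direction was 38%.

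The called windows were joined where they touched and had the same direction, because a peak of about 1 kb spans several windows. This gave 1823 regions, 714 with more highland and 1109 with more lowland animals. A single window made up 1304 regions, and 519 regions had at least 2 windows. Regions of at least 3 windows numbered 42 toward high and 77 toward low elevation. The highland regions covered 488 kb and the lowland regions 776 kb.

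**Figure D3:**
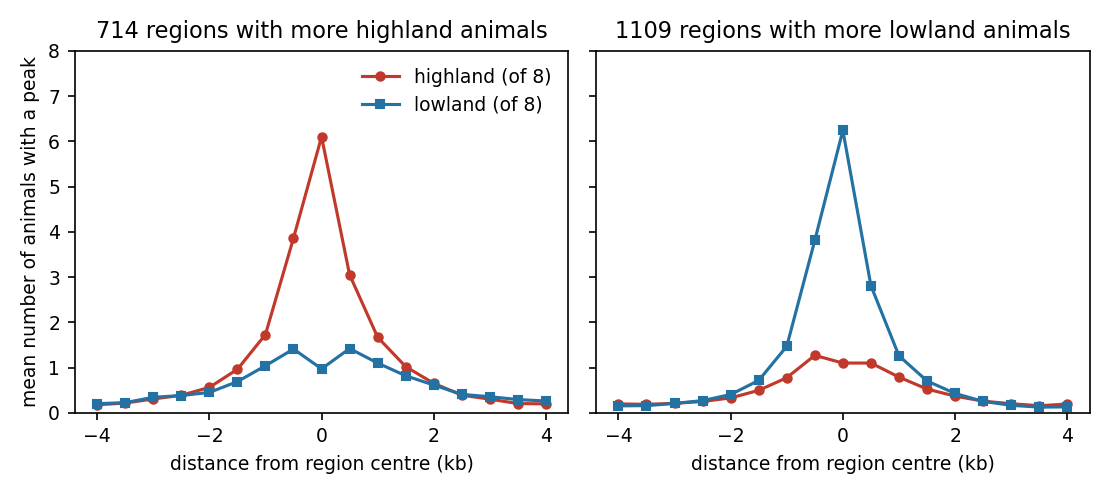
Mean number of animals with a peak (vertical axis, of 8) against the distance from the region centre in kb, for the 714 highland regions (left) and the 1109 lowland regions (right), with highland animals in red circles and lowland animals in blue squares. The side that chose the regions reaches 6.1 and 6.24 animals at the centre, and at 2 kb on either side the means are at most 0.651 animals.

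The plot around region centres gives the extent of these differences, which the choice of regions fixes at the centre. In highland regions the mean was 6.1 highland and 0.972 lowland animals at the centre, and 0.651 and 0.614 at 2000 bp downstream. In lowland regions it was 1.1 highland and 6.24 lowland animals at the centre. At 500 bp on either side of the centre of the highland regions the lowland mean was higher than at the centre, with 1.41 and 1.42 animals. In the lowland regions the highland mean was 1.27 animals 500 bp before the centre. It was 1.1 animals 500 bp after the centre, as at the centre. Tested windows lay within 1500 bp of a window with a peak in more than 11 animals in 16.2% of cases, compared with 20% of the highland and 13.9% of the lowland windows.

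The 8 leading regions in each direction, ordered by p and then by number of windows, are described in the coordinates of Sscrofa10.2. No gene annotation of this build was used here, so their position relative to genes is not given. The animals and p of a region are those over base 250 of its window with the smallest p, and other windows of the region may hold other numbers. The first highland region, chr14:151097001-151099000, had a peak in 3 TH, 4 YH, 0 TL and 0 YL animals (Fisher exact test, p = 0.0014). These 7 peaks were 1845 to 2256 bp long with 57 to 78 tags, that is, reads in the peak. No lowland animal had a peak within 3000 bp of its centre. The highland peaks at chr2:158445501-158447000 were found in 4 TH and 4 YH animals, against 0 TL and 1 YL animals (exact p = 0.0014). At the centre of this region 1 TL animal had a peak as well. All 16 animals had a peak 1400 bp before the centre, so that the difference lay beside a stretch with a peak in every animal.

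The other 3 highland regions at the same exact p lay at chr9:100967001-100968000 (TH 4, YH 4, TL 0, YL 1), chr8:91205501-91206000 (TH 4, YH 3, TL 0, YL 0) and chr13:156104001-156104500 (TH 3, YH 4, TL 0, YL 0). Their highland peaks held fewer tags, with medians of 17.5, 25 and 20, but their fold enrichment was higher (7.12 to 11.8, 10.1 to 13.4 and 9.75 to 13.5, against 3.58 to 5.76 in the first region). At the region of chromosome 13, 2 TL and 2 YL animals had a peak from 150 bp after the centre, within the same window. At the region of chromosome 8, 14 animals had a peak 800 bp before the centre, among them 3 TL and 3 YL animals, and these lowland peaks reached into the start of the called window. The longest highland region, chr6:64796501-64800000, spanned 7 windows. It had a peak in all 4 TH and all 4 YH animals, and in 1 TL and 1 YL animal (exact p = 0.00699). The 8 highland peaks were 3557 to 5080 bp long with a median of 142 tags, and the 2 lowland peaks were 3638 to 4841 bp long with 125 to 242 tags. Where a lowland animal had this peak, it was thus within the highland range of lengths. The remaining highland regions, chr5:111103001-111105500 (TH 2, YH 4, TL 0, YL 0) and chr3:11814501-11816000 (TH 4, YH 4, TL 1, YL 1), had the same exact p of 0.00699. At the centre of the last of these, 2 TL animals had a peak.

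All 8 leading lowland regions reached p = 0.0014 (Fisher exact test). In the leading window of 6 of them the split was 3 TL and 4 YL animals against 0 TH and 0 YH animals. These were chr10:29276501-29278500, chr15:55962501-55964500, chr6:147467001-147468500, chr8:20659001-20660500, chr11:68516501-68518000 and chr14:48942001-48943500. At the centre of chr10:29276501-29278500 1 TH animal had a peak, at that of chr11:68516501-68518000 1 TH and 1 YH animal had one, and highland peaks also reached into chr8:20659001-20660500 after its centre. In the regions of chromosomes 15 and 14, no highland animal had a peak within 3000 bp of the centre. The other 2 regions, chr2:121385001-121386500 and chr10:66126501-66128000, had a peak in all 8 lowland animals and in 1 YH animal in their leading window. At the centre of chr2:121385001-121386500, 2 YH animals had a peak. In its leading window the lowland peaks held 31 to 45 tags and the YH peak 35 tags. At chr10:66126501-66128000, 14 animals had a peak 1100 bp after the centre, among them 2 TH and 4 YH animals. The longest lowland region was chr6:9244501-9249500, with 10 windows and a peak in 0 TH, 0 YH, 3 TL and 2 YL animals (exact p = 0.0256). In 3 of the 16 leading regions, more than 11 animals had a peak over some base within 3000 bp of the centre.

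**Figure D4:**
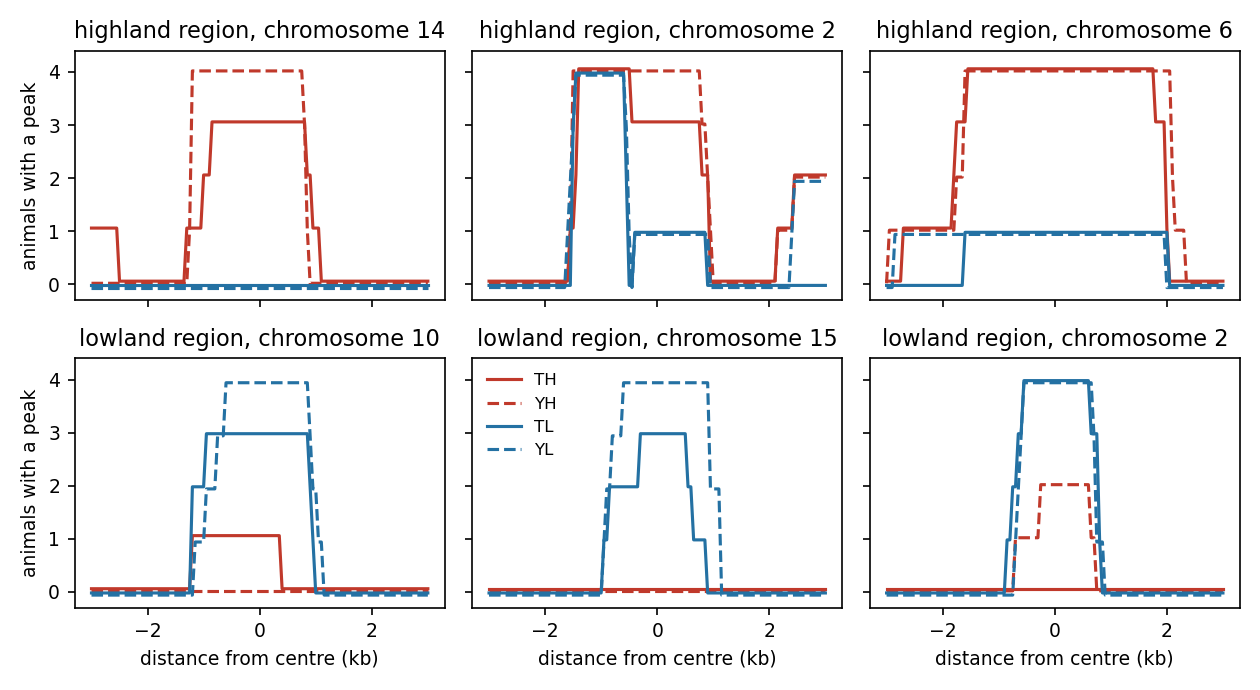
Number of animals with a peak (vertical axis, 0 to 4 per list, lines shifted slightly so that they do not hide each other) against the distance from the centre in kb at 3 highland regions (top) and 3 lowland regions (bottom). TH and YH are in red and TL and YL in blue, with solid lines for Tibetan and dashed lines for Yorkshire pigs. At the highland region of chromosome 2 all 4 lists reach 4 animals before the centre, whereas at that of chromosome 14 the lowland lists stay at 0.

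Peaks in the called windows were close in strength to other peaks. In highland windows the median was 32 tags over 4356 highland peaks and 36 tags over 705 lowland peaks. In lowland windows it was 28 tags over 6937 lowland peaks and 29 tags over 1255 highland peaks. In all tested windows the median was 30 tags in the lists of each elevation. The few peaks on the side with fewer animals were thus not weaker in their median number of tags than those on the other side. These medians pool peaks of unnamed animals and were not tested.

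Called windows were found on every chromosome from 1 to 18. The percent of tested windows called ranged from 1.23% on chromosome 17 to 2.04% on chromosome 11. Lowland windows outnumbered highland windows on each of the 18 chromosomes. The highland share ranged from 26.5% on chromosome 18, with 22 highland and 61 lowland windows, to 48% on chromosome 12, with 47 and 51. In the outer 10% at each end of the chromosomes, 1.53% of tested windows were called and 45.1% of these were highland windows, compared with 1.66% and 35.9% in the middle 80%.

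**Figure D5:**
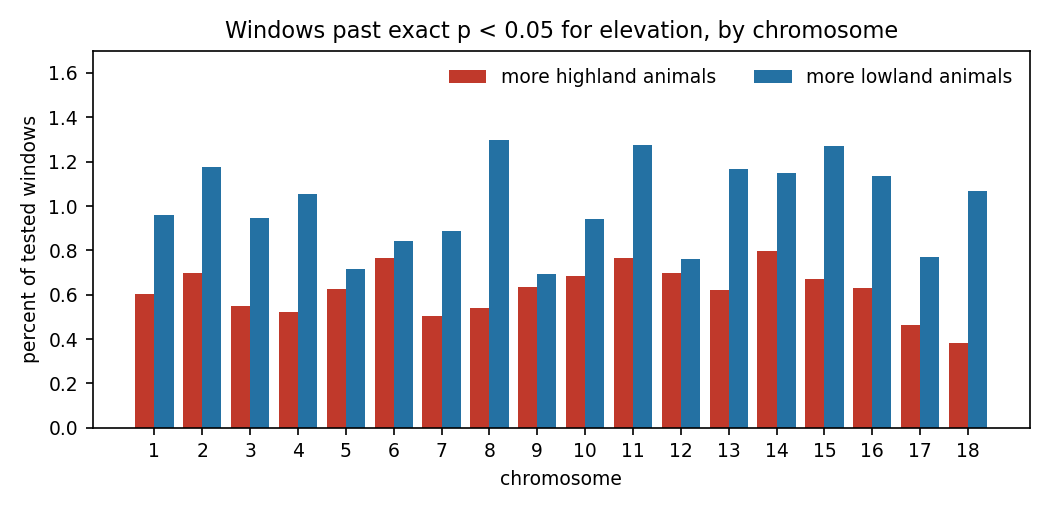
Percent of tested windows (vertical axis) past an unadjusted exact p under 0.05 on each chromosome (horizontal axis), with more highland animals in red and more lowland animals in blue. The lowland bar is the taller one on all 18 chromosomes, most clearly on chromosomes 8 and 18.

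Genes were assigned through the readable part of the study's table of windows that differ between breeds, which pairs 330 windows with 164 genes and a genomic element. The table was chosen on these animals by breed, so it is no independent source for elevation and covers few of the genome's genes. The windows it pairs with a gene lay on chromosomes 1, 10, 11, 12, 13 and 14 only. A peak was absent in 113 of the 330 windows, and 74 could be tested. More highland animals had a peak in 28 of these, more lowland animals in 35, and the numbers were equal in 11. The median difference was 0, as over all tested windows. The 251 intronic windows contributed 50 tested windows, 20 toward high and 21 toward low elevation. The 35 promoter windows contributed 12, with 5 and 7. A single gene window was called (1.35% of 74, against 1.62% of all tested windows).

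This window was listed as in the promoter of ICA, at chr13:82337501-82338000. The symbol had no match in the RefSeq table, so this assignment rests on the study's table alone. The study defined promoters as a stretch upstream of the transcription start, and it counted this gene in the HIF-1 pathway. A peak was present in 3 TH, 2 YH, 0 TL and 0 YL animals (5 against 0, Fisher exact test, p = 0.0256, adjusted p = 1). The 3 TH peaks held 23, 30 and 75 tags and were 878, 1044 and 2841 bp long. The 2 YH peaks held 20 and 25 tags and were 866 and 1081 bp long. Within 2000 bp of the window there were again 5 highland and 0 lowland peaks.

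Of the study's 24 key and bisulfite-tested genes, 12 had a window in the readable part of the table. The others could not be examined. No window of these 12 genes other than that of ICA was called. The FOXO1 promoter (FOXO1, a FoxO transcription factor restrained by insulin signaling) had 2 adjacent windows at chr11:15691501-15692500. In the first, a peak was present in 2 TH, 0 YH, 4 TL and 0 YL animals (exact p = 0.608), and in the second in 3, 0, 4 and 0 (exact p = 1). Both windows had peaks in Tibetan pigs alone, at either elevation. An intron of SMAD2, which carries signals of the TGF-beta family, had a peak in 1 TH, 4 YH, 1 TL and 4 YL animals at chr1:106962501-106963000, 5 animals at each elevation. An intron of IGF1R, the receptor of insulin-like growth factor 1, had a peak in 3, 4, 4 and 4 animals (TH, YH, TL, YL) at chr1:153532001-153532500, too many for the test.

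An intron of BCKDHB, a subunit of the enzyme complex that breaks down branched-chain amino acids, had a peak in 3 TH, 1 YH, 4 TL and 3 YL animals at chr1:96439001-96439500 (exact p = 0.282). A second BCKDHB window at chr1:96711001-96711500 had 2, 1, 1 and 3 animals in the same order (exact p = 1). An intron of STAT5B, a transcription factor of cytokine and growth hormone signaling, had 1, 0, 2 and 2 animals at chr12:20749501-20750000. The windows of EPHX2, ERG and FGFR2 had a peak in at most 2 of 16 animals, and the GRB2 and MAP2K1 windows had none over base 250. They could therefore not be tested for elevation by this count. Elsewhere in the MAP2K1 window, 2 peaks of the highland and 4 of the lowland lists overlapped it.

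By pathway, the HIF-1 list (4 genes) had 1 tested window, the highland ICA window. The insulin list (6 genes) had 2 tested windows and the FoxO list (8 genes) 4, with none called and medians of -1.5 animals (highland minus lowland) in each. Both tested insulin windows are those of the FOXO1 promoter. They also count among the 4 FoxO windows, so the 2 medians are not separate results. The vascular list (5 genes) had 1 tested window, in ANGPTL2, with 3 highland and 6 lowland animals (exact p = 0.315). The muscle and matrix list (6 genes) had 2, with 3 and 2 animals in SH3BGR and 1 and 4 in ITGB1, and neither was called. The calcium and cGMP list (5 genes) had 6 tested windows, 4 of them toward high elevation, with a median of 1.5 and none called. Its values included 4 highland and 1 lowland animals in GNAQ and in CAMK1D (exact p = 0.282 each). The list of mitochondrial and lipid metabolism (10 genes) had 7 tested windows, with 1 toward high and 4 toward low elevation, a median of -1 and none called. No window of the nuclear receptor list (4 genes, 15 windows) could be tested. The median over all tested windows was 0, and no direction is read from lists with at most 7 tested windows.

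The stretches between the first and last listed window of a gene were searched as well, for the 149 genes whose listed chromosome was that of the gene in RefSeq. They held 632 tested windows, of which 11 were called (1.74%, against 1.62% over all), 5 toward high and 6 toward low elevation. These 11 windows lay in 7 genes. Whether a window was in an exon or an intron was not determined.

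Highland peaks were found in MRC1, the mannose receptor of macrophages, at chr10:48861501-48862000. All 4 TH and all 4 YH animals had a peak there, against 0 TL and 3 YL animals (Fisher exact test, p = 0.0256). The 8 highland peaks held 23 to 63 tags and the 3 YL peaks 49 to 58. Over the counted base of this window, the Tibetan lowland pigs were the group without a peak. With any overlap of at least 1 bp, the difference (highland minus lowland) was only 1 overlapping peak. Peaks of the TL list thus overlapped this window as well. Within 2000 bp of the window the difference was 0. SMYD3, a lysine methyltransferase, had 2 adjacent windows at chr10:21138501-21139500 with a peak in 2 TH, 3 YH, 0 TL and 0 YL animals (exact p = 0.0256). The same 5 peaks of 40 to 52 tags covered both windows. GNAQ, a G protein subunit that couples receptors to phospholipase C, had 3 TH, 4 YH, 0 TL and 2 YL animals with a peak at chr1:257508001-257508500 (exact p = 0.0406).

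Lowland peaks were found in LIPC, the hepatic lipase, at chr1:125475501-125476000, where all 4 TL and all 4 YL animals had a peak, against 0 TH and 3 YH animals (exact p = 0.0256). Here the Tibetan highland pigs were the group without a peak over the counted base. The 8 lowland peaks held 21 to 39 tags and the 3 YH peaks 20 to 25. With any overlap of at least 1 bp, the LIPC difference (highland minus lowland) was -2 overlapping peaks. Peaks of the TH list thus overlapped this window as well. Within 2000 bp of the window the difference was -1. NR5A2, a nuclear receptor, had 2 adjacent windows at chr10:27308001-27309000 with 1 TH, 1 YH, 3 TL and 4 YL animals (exact p = 0.0406). DESI2, a member of the desumoylating isopeptidase family, had 1 TH, 0 YH, 3 TL and 3 YL animals at chr10:19732001-19732500 (exact p = 0.0406).

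PARK2, a ubiquitin ligase of mitochondrial quality control, had called windows in both directions along a stretch with 139 tested windows. At chr1:7826001-7826500 a peak was present in 0 TH, 0 YH, 3 TL and 2 YL animals, and at chr1:8090001-8090500 in 0, 0, 2 and 3 (exact p = 0.0256 each). At chr1:7620001-7620500 it was present in 3 TH, 4 YH, 0 TL and 2 YL animals (exact p = 0.0406). The lowland peaks at chr1:8090001-8090500 were long, with 66 to 135 tags over 2381 to 3330 bp and a fold enrichment of 4.42 to 6.7. They also covered the nearby listed window at chr1:8091001-8091500. There a peak was present in 2 TH, 3 YH, 4 TL and 4 YL animals, too many for the test.

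Several of these single windows depended on how peaks were counted. With any overlap of at least 1 bp in place of base 250, the windows of LIPC, MRC1 and GNAQ and 2 of the PARK2 windows were no longer called. With peaks of at least 20 tags, those of DESI2 and GNAQ were not. Without peaks of 3000 bp or more, the 2 lowland windows of PARK2 were not, and the longest highland region (chr6:64796501-64800000) had a difference of 0 animals, since all of its peaks are that long. Among the other leading regions, those of chromosomes 2, 8 and 13 with more highland animals were not called with any overlap, where the differences were 0, 2 and 3 overlapping peaks (at most 4 counted per list). The highland regions of chromosomes 9 and 13 were not called with at least 20 tags, nor that of chromosome 9 with equal lists. The 8 leading lowland regions stayed called under these 4 settings. With peaks within 2000 bp of the window counted, 6 of the 16 leading regions were not called, the lowland ones of chr8:20659001-20660500 and chr10:66126501-66128000 and 4 highland ones. Under this setting the windows of LIPC, MRC1, DESI2 and GNAQ, 2 of PARK2 and 1 of SMYD3 were not called either. With a fold enrichment of at least 10, 11 gene windows, that of ICA included, and 14 of the 16 leading regions were no longer called. The ICA, SMYD3 and NR5A2 windows stayed called with any overlap, with at least 20 tags and with the test stratified by breed.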

How the data were processed

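MeDIP-seq libraries of 16 pig hearts were used. FASTX trimming, Bowtie alignment (to Sscrofa10.2, per the labels) and MACS peak calling were done by the authors; the deposited lists give, per peak, the tags as a count of reads and the fold enrichment as a ratio from the peak caller. Positions are in bp. Both values were used here to describe or select peaks. In 100907 TH rows the peak end was read from the joint position field. Windows with 5 to 11 peaks were tested with two-sided Fisher exact tests and Benjamini-Hochberg adjustment. Reads and mapping shares per animal came from the study's sequencing summary, and only these are known per animal; peaks carry no animal names, so the precision of a window is set by 8 animals per side. Groups were taken from the sample titles. Columns of the study's own comparisons were not used.

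The members and lists were chosen with earlier results of these data known. Named genes were the bisulfite-tested and key genes with a listed window, up to 25 genes by p with a called listed or intervening window (at most 2000000 bp apart), and the 8 pathway lists; the 8 leading regions per direction were ordered by p, windows and position. Matching of the gene's chromosome in RefSeq (149 of 164 genes) was added after seeing the data. The result at 1 gene is not reported here. No sequence of Sscrofa10.2 was used. Alternatives were other counting, grids, window sizes, peak thresholds, list sizes and tests. Scripts were tested on simulated data and ran in Python 3.11.15 with SciPy 1.17.1, pandas 2.3.3, NumPy 2.4.6 and Matplotlib 3.10.9.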

Additional observations from a re-analysis of the deposited data

Results flagged for a closer look

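Chromosome X was left out of the comparison and gave a different balance of directions. Of 4403 tested windows on this chromosome, 31 passed an unadjusted exact p under 0.05 (0.704%, 95% Wilson interval 0.496% to 0.998%, which covers counting error only). Of these, 25 had more highland animals and 6 had more lowland animals. The highland share was 80.6%, against 38.6% on chromosomes 1 to 18, and the difference between the shares was not tested. The lists held 7015 (TH), 7650 (YH), 3821 (TL) and 8911 (YL) peaks on chromosome X, so that TL had the fewest. The part of this in the highland share was not tested.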

How the results depend on the processing

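The smallest adjusted p stayed above 0.05 under all alternatives run, with 0.81 for mid-p the lowest. The number of elevation windows was 1245 with windows of 1000 bp, 1021 with merged regions, 333 with a fold enrichment of at least 10 and 6252 with mid-p, of which 3726 had 4 or 12 peaks and so lay outside the windows tested otherwise. With mid-p, 5972 had the same direction in both breeds (1245, 1021 and 333 under the other settings). Under these 4 settings breed gave 5649, 4005, 992 and 20504, and home against moved animals gave 2178, 1803, 793 and 9870; larger or merged units leave fewer units to test. Breed exceeded elevation under every setting, by 2.98 to 5.61 times. The highland share was 36% with any overlap of at least 1 bp, 32.8% with merged regions, 45.4% with equal lists and 40.5% with mid-p, below 50% throughout. Gene windows numbered 0 with a fold enrichment of at least 10, 3 without peaks of 3000 bp or more (ICA and 2 windows listed for NPG3), 2 with mid-p and 4 within 2000 bp (ICA, 2 of ITGB1 and 1 of SMYD3). At a fold enrichment of at least 10 the BCKDHB window at chr1:96439001-96439500 turned to 2 more highland animals. With overlap of at least 1 bp, the LIPC, MRC1 and GNAQ windows and 2 of PARK2 had differences of -2, 1, 4, -4 and 2 overlapping peaks. The causes were not tested.

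The difference in uniquely mapped reads per animal (highland minus lowland) was -796684 for medians and ranged from -171383 to 640222 when each animal was left out in turn, below 0 without TL replicate 1, 3 or 4 or without YH replicate 2. The difference in the mapping share ranged from -0.765 to 0.0279 percentage points, above 0 without TH replicate 2. Neither difference passed the test in any of these. With the replicate number as a block, the exact permutation p was 0.807 for the reads (220210) and 0.606 for the mapping share (-0.462); the deviations of same-numbered animals in reads correlated at 0.94 (TL and YH), 0.95 (TL and YL) and 0.89 (YH and YL), but at -0.35, -0.27 and -0.06 between TH and TL, YH and YL. The numbers were therefore not taken as pairs. No paired analysis of windows was possible because peaks carry no animal names, and for the same reason no animal could be left out there.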
